A study of Homo sapiens with 6 samples.

Results

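Desmosome genes were compared between PC3 cells given a miR-205 mimic and PC3 cells given a negative control mimic. PC3 is an androgen-independent line from an aggressive human prostate cancer, grown here as 1 line in culture. In both groups (3 arrays each, called biological triplicates in the series design) RNA was recovered with a rat antibody against AGO2, the Argonaute protein that carries microRNAs, and measured on Affymetrix gene arrays. The series set out to find transcripts targeted by miR-205. The dose of the mimics and the time after transfection were not given in the sources used here. The genes were DSP, DSC1, DSC2, DSC3, DSG2, DSG3, PKP1, PKP2, PKP3 and PPL, taken wherever a probe set carried that symbol alone. All 10 were found, each with 1 probe set, among 18417 genes with a single symbol.

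Desmosomes are the spot-like junctions that tie the keratin filaments of neighbouring epithelial cells together. Desmocollins (DSC) and desmogleins (DSG) are cadherins that cross the membrane and bind their partners between cells. Inside the cell, plakophilins (PKP) and plakoglobin (JUP) hold the cadherin tails and cluster them, and desmoplakin (DSP) links this plaque to keratin. Periplakin (PPL) is another plakin, found at desmosomes and in the cornified envelope of stratified epithelia. In prostate epithelium miR-205 is known as a microRNA of basal cells that is low in many prostate cancers and lowers the epithelial repressors ZEB1 and ZEB2.

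The labels name the mimic as miR-205 without an arm, so both mature RefSeq sequences (GRCh38.p14, plus strand, chr1:209432166-209432187 and chr1:209432203-209432223) are shown, with the seed, bases 2 to 8, in capitals.
hsa-miR-205-5p: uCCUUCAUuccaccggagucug
hsa-miR-205-3p: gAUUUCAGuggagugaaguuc
The seeds of the arms differ, and no transcript sequence of the desmosome genes was searched for matches to either.

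The values were log2 intensities, so a difference of 1 is a doubling, and the medians over all genes lay between 7.82 and 7.85 on the 6 arrays. The first principal component over all genes (69.5% of the variance) separated the groups. On it negative control replicate 2 scored 11.2, between the miR-205 arrays (-19.6 to -18.3) and negative control replicates 1 (22.2) and 3 (23.8). It lay nearer to those controls than to the miR-205 arrays. On the second (13.1%) negative control replicate 2 scored -18.1 and the remaining 5 arrays 0.20 to 7.68. Results without that array are therefore also given for the called members, DSC3, some cornified envelope genes and the counts of members and of all genes. The SD over genes of the difference between 2 arrays was at most 0.218 within a group and at least 0.275 between groups. The 95th percentile of the mean level of 361 olfactory receptor genes, which epithelial cells hardly express, was 6.12 and served as a mark for dim genes. The luminal keratins KRT8 and KRT18 had means of 11.6 and 11.7, well above that mark, and both were called higher with miR-205, while the luminal product KLK3 lay at 6.07, just under it, and did not pass. Of the basal markers, the keratin gene KRT5 was dim (5.68), while KRT14 (7.47) and the integrin gene ITGB4 (10.5) were not, and ITGB4 alone of these 3 was called, as higher. The keratins and ITGB4 also stand in the partner lists below. All 3 measured leukocyte markers (3.61 to 5.26) and all 3 keratinocyte markers (5.47 to 5.81) lay under the mark, and none of them passed the test. Of 5 fibroblast markers, COL1A1 (8.99), COL1A2 (6.64) and PDGFRB (6.32) were above the mark and did not pass, and DCN (3.09) was under it and did not pass. LUM passed as higher (3.40 against 3.03) from a level far below the mark, and its part in the results below was not tested.

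With the miR-205 mimic the desmosome genes did not move as one. PPL and PKP3 rose by about the same amount, 1.69-fold and 1.66-fold. PKP2 rose 1.15-fold, while PKP1 was 1.21-fold lower and DSC2 1.13-fold lower. DSP, DSC1, DSC3, DSG2 and DSG3 did not pass the test. Genes were called at an adjusted p under 0.05 in limma, a linear model fitted to all genes at once, with Benjamini-Hochberg adjustment over the 18417 genes. Of the 10 genes 3 were higher and 2 lower, against a background of 12.6% of all genes called higher and 14% called lower (26.6% in all). Their median log2 change was 0.03, against -0.02 over all genes. Without negative control replicate 2 there were 2 higher and 2 lower, against 14.5% and 15.6% of all genes. Rises and falls here are of the RNA recovered with AGO2, and input RNA was not analysed here. In these bulk immunoprecipitates a change in AGO2 binding cannot be told apart from a change in transcript abundance. Nor can it be told apart from a change in the share of cells with the transcript or in RNA per cell.

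**Figure D1:**
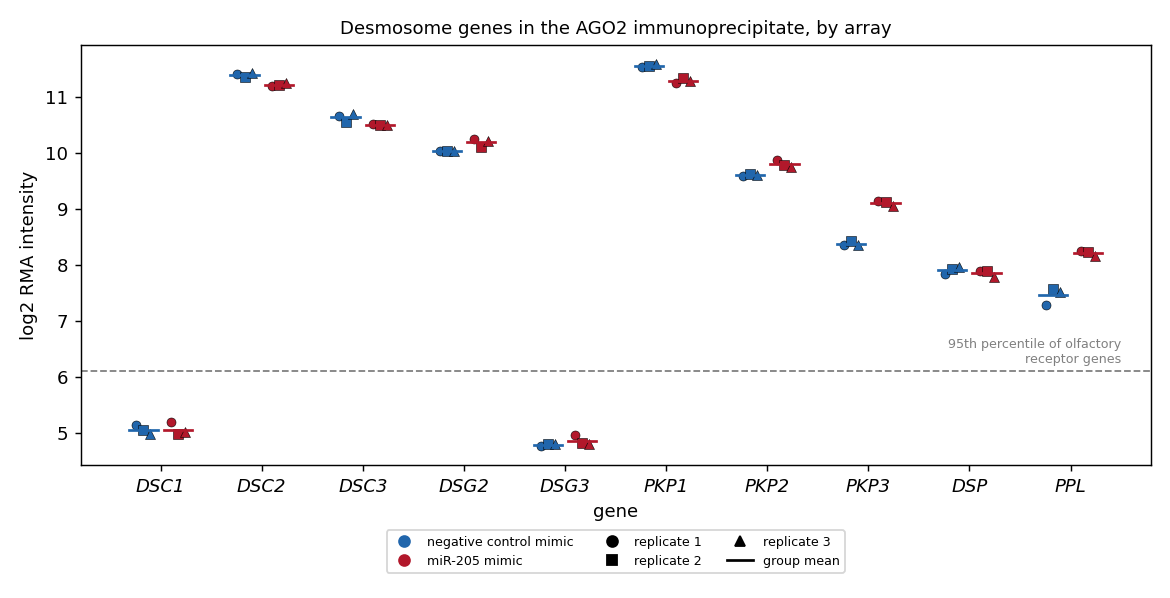
Log2 RMA intensity (vertical axis) of the 10 desmosome genes (horizontal axis) on each of the 6 arrays, blue for the negative control mimic and red for the miR-205 mimic, with a bar at each group mean and a marker shape for each replicate number. The red and blue points of PKP3 and PPL are far apart, those of DSC1 and DSG3 mix below the dashed line at 6.12, and heights of different genes are not comparable because their probes differ.

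Periplakin had the largest change of the 10. PPL read 8.26, 8.24 and 8.17 on miR-205 replicates 1 to 3 and 7.30, 7.57 and 7.53 on control replicates 1 to 3. Every miR-205 array was above every control array, and the gap between the nearest arrays (0.59) was wider than the range within either group (0.09 and 0.28). The log2 change was 0.75 ± 0.08 (SE, n = 3 per group), with an adjusted p of 0.000351 by limma. It was 0.81 without negative control replicate 2 (adjusted p = 0.000246), and 0.67 to 0.81 with any 1 array left out. By signed log2 change, counted from the largest rise, PPL ranked 225 of 18417 genes. The control spread came mostly from replicate 1, the lowest array.

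Desmoplakin, the plakin that carries the link from plaque to keratin, gave 7.89, 7.89 and 7.79 with miR-205 and 7.84, 7.93 and 7.97 with the control. The groups overlapped. The log2 change was -0.05, with a 95% interval of -0.19 to 0.09 and an adjusted p of 0.616 by limma. A change of DSP as large as that of PPL lies outside this interval. Within arrays, the log2 ratio of PPL to DSP was higher with miR-205 by 0.80 ± 0.06 (SE, n = 3 per group).

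The plakophilins, armadillo-repeat proteins of the plaque, went in different directions. PKP3, the form found most widely over epithelial layers, read 9.14, 9.13 and 9.06 with miR-205 and 8.36, 8.42 and 8.36 with the control. The groups stood apart by 0.64, while neither ranged over more than 0.08. Its log2 change was 0.73 ± 0.06 (SE, n = 3 per group, adjusted p = 8.05e-05 by limma), and 0.75 without negative control replicate 2. By signed log2 change it ranked 245 from the top. PPL and PKP3 were the genes of the 10 that were called and at least 1.5-fold higher, a combination met by 2.24% of all genes.

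PKP1, the plakophilin of suprabasal layers that also occurs in the nucleus, read 11.25, 11.34 and 11.28 with miR-205 and 11.53, 11.56 and 11.60 with the control. Every miR-205 array was below every control array, by at least 0.19. The log2 change was -0.27 ± 0.06 (SE, n = 3 per group, adjusted p = 0.00877 by limma), and -0.28 without negative control replicate 2 (adjusted p = 0.0136). The call held in all 15 other settings that were run, as it did for PKP3 and PPL. Each of these genes has 1 probe set and lies above the dim mark. The settings on probe sets and on dim genes therefore left their log2 changes as they were, and could move a call only through the other genes. In size the fall of PKP1 was under the rises of PKP3 and PPL.

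PKP2, the plakophilin of simple epithelia and heart muscle, read 9.89, 9.78 and 9.75 with miR-205 and 9.58, 9.62 and 9.61 with the control. The groups did not overlap, and the miR-205 arrays were the more spread. The log2 change was 0.20 ± 0.06 (SE, n = 3 per group, adjusted p = 0.0393 by limma). This call was lost when any 1 of the 6 arrays was left out (adjusted p = 0.0501 to 0.138), with a change of 0.16 to 0.23. The value without negative control replicate 2 was 0.21 (adjusted p = 0.0501).

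The differences between plakophilins were then taken within arrays, as log2 ratios, which asks whether members changed unequally. PKP3 over PKP1 was higher with miR-205 by 1.00 ± 0.05, PKP3 over PKP2 by 0.53 ± 0.03 and PKP2 over PKP1 by 0.47 ± 0.06 (SE, n = 3 per group). Each of these ratios separated the groups on all 6 arrays. Over the 7 pairs compared, chosen after the changes were seen, 6 had a two-sided exact permutation p of 0.1, or 0.117 adjusted over the pairs. With 3 arrays in each group 0.1 is the lowest value possible, so such a test cannot fall under 0.05.

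**Figure D2:**
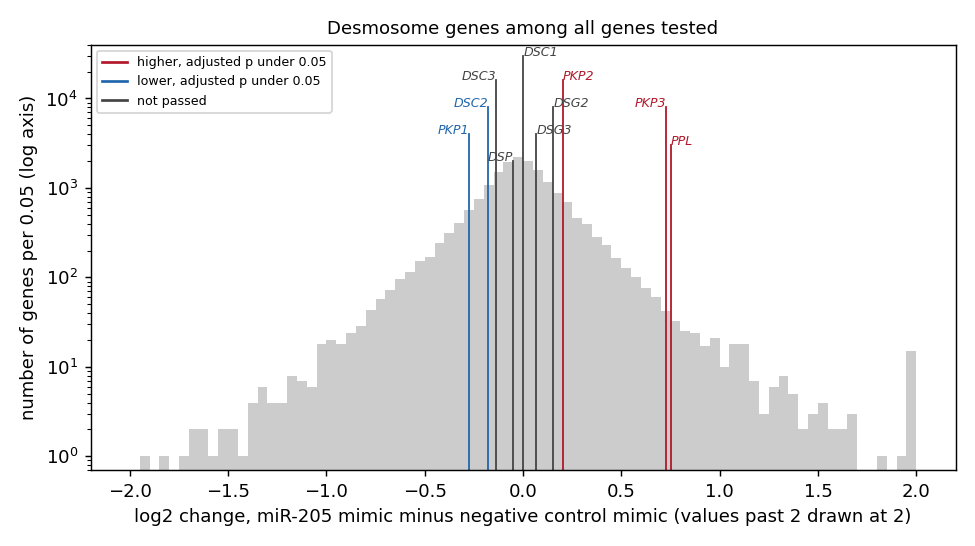
Histogram of the log2 change (miR-205 mimic minus negative control mimic, horizontal axis) of all 18417 genes on a log count axis, with a labelled line for each desmosome gene, whose height has no meaning. PKP3 (0.73) and PPL (0.75) lie in the upper tail, and the other 8 genes lie between -0.27 and 0.20, in the body of the distribution.

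Of the 5 desmosomal cadherins among the 10 genes only DSC2 passed the test, as lower. DSC2, DSC3 and DSG2 lay above the dim mark, with changes of under 0.2 in size. DSC2, the most widely expressed desmocollin, read 11.20, 11.21 and 11.25 with miR-205 and 11.41, 11.36 and 11.44 with the control. The groups did not overlap. Its log2 change was -0.18 ± 0.06 (SE, n = 3 per group, adjusted p = 0.0474 by limma). The call held without negative control replicate 2 (-0.20, adjusted p = 0.0416). It was lost without any 1 of the other 5 arrays (adjusted p = 0.0885 to 0.139), and also when each array was centred on its median (0.0512).

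DSC3, the desmocollin of basal layers, read 10.53, 10.50 and 10.50 with miR-205 and 10.67, 10.56 and 10.71 with the control. Every miR-205 array was lower, by a margin of 0.03 against control replicate 2. The log2 change of -0.14 (95% interval -0.28 to 0.0048) had an adjusted p of 0.145 by limma, and -0.18 without negative control replicate 2 had 0.0582. DSG2, the desmoglein of simple epithelia and of most cells with desmosomes, read 10.25, 10.11 and 10.22 with miR-205 and 10.03, 10.04 and 10.05 with the control. Here every miR-205 array was higher, by a margin of 0.06. The log2 change of 0.15 (95% interval 0.02 to 0.29) had an adjusted p of 0.0963 by limma, so neither gene passed.

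Within arrays the ratio of DSG2 to DSC2 was higher with miR-205 by 0.33 ± 0.05, and that of DSG2 to DSC3 by 0.29 ± 0.06 (SE, n = 3 per group). The ratio of DSC3 to DSC2 differed by 0.04 ± 0.03, with an exact permutation p of 0.3. The changes of both desmocollins were thus closer to each other than to that of DSG2, a comparison of values that was not tested.

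DSC1 and DSG3, cadherins of keratinising and stratified epithelia, were dim. DSC1 read 5.20, 4.98 and 5.01 with miR-205 and 5.14, 5.06 and 4.98 with the control, and DSG3 read 4.96, 4.82 and 4.80 against 4.77, 4.81 and 4.80. Both genes lay under the 6.12 mark on every array, and their groups overlapped. Their log2 changes were 0.0018 (95% interval -0.17 to 0.18) and 0.07 (-0.08 to 0.21). At such levels a change of the transcript could be missed. On chromosome 18 the cadherin genes lie in the order DSC3, DSC2, DSC1, DSG1, DSG4, DSG3 and DSG2 (RefSeq, GRCh38.p14), so the dim genes are flanked by DSC2 and DSC3 on one side and DSG2 on the other.

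Counting arrays rather than model calls, the groups did not overlap for 7 of the 10 genes, where this held for 42.2% of all genes. Those were DSG2, PKP2, PKP3 and PPL on the higher side (19.9% of all genes) and DSC2, DSC3 and PKP1 on the lower side (22.2%). DSP, DSC1 and DSG3 overlapped.

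**Figure D3:**
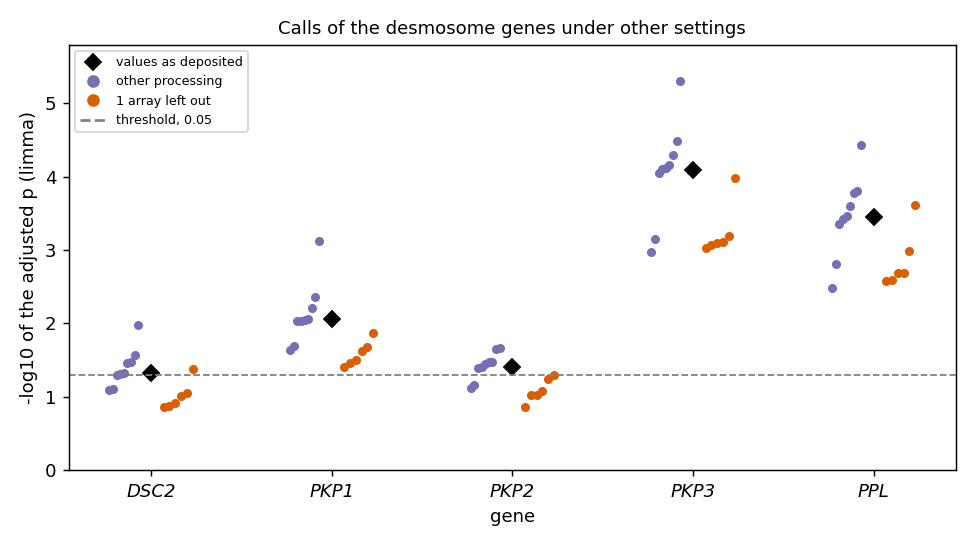
Minus log10 of the limma adjusted p (vertical axis) of the 5 called desmosome genes (horizontal axis) with the values as deposited (black diamonds), under 9 other processing settings (purple) and with 1 array left out (orange). All points of PKP1, PKP3 and PPL lie above the dashed threshold of 0.05, while 8 of 15 settings put DSC2 below it and 8 of 15 put PKP2 below it.

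Promoters of DSC2 and PKP1 are shown because these genes were called lower. The hexamer CAGGTG, the type of E-box that ZEB1 is known to bind, stood in the DSC2 window shown, but neither in the other DSC2 window, which is not shown, nor in that of PKP1. RefSeq promoters were at hand for 7 of the 10 genes (8 windows, DSC2 having 2) and for PKP2, PKP3 and PPL none were printed. Shown are the 250 bases before the gene's start, with CAGGTG or its reverse complement CACCTG in capitals.
DSC2 promoter (GRCh38.p14, chr18:31102422-31102671, minus strand): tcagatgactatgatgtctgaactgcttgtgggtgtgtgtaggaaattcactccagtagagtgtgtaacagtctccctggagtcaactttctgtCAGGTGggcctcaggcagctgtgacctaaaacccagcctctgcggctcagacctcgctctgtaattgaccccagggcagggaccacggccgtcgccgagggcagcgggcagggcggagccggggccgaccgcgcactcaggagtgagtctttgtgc
PKP1 promoter (GRCh38.p14, chr1:201283256-201283505, plus strand): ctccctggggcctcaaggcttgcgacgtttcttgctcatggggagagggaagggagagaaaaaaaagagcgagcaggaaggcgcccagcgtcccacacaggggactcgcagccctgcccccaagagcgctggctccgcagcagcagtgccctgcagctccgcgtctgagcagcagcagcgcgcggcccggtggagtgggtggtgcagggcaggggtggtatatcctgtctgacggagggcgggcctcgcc
On either strand the hexamer stood in 3 of the 8 windows, those of DSP and DSG2 and 1 of DSC2, and in 17.5% of 35116 RefSeq promoter windows of the same length. In the DSC2 window shown it began 156 bases before the start. In DSP it began 178 and 85 bases before the start, and in DSG2 232 and 116 bases before it. The 3 genes with the hexamer were called lower (DSC2) or not called (DSP and DSG2). PKP2, PKP3 and PPL, which had no window, were all of the members called higher. Every member with a window was therefore lower or not called, with or without the hexamer, so the windows cannot relate the hexamer to direction. The palindrome AACCGGTT, bound by Grainyhead-like factors that act on desmosomal genes, was in 0 of the 7 genes' windows and in 0.117% of all windows. A motif this rare would be absent from most sets of 8 windows, so its absence here tells nothing about those factors.

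The other parts of the junction were read from lists of related genes. The test called 1 of 7 other desmosomal genes higher and 2 lower, where 12.6% and 14% of all genes were, and their median log2 change was 0.11. Plakoglobin, JUP, which holds the cadherin tails next to the plakophilins, read 10.64, 10.70 and 10.74 with miR-205 and 10.29, 10.42 and 10.51 with the control. Its groups did not overlap, and its change of 0.29 ± 0.07 (SE, n = 3 per group) had an adjusted p of 0.018 by limma. The call was lost without miR-205 replicate 2 or 3 or negative control replicate 1 (highest adjusted p 0.0672).

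PKP4, a relative of the plakophilins found at several kinds of junction, fell by 0.28 on the log2 scale (adjusted p = 0.0244 by limma). Its arrays read 9.80, 9.68 and 9.53 against 9.99, 9.93 and 9.94. That call was lost with all probe sets tested and without miR-205 replicate 2 or 3 or negative control replicate 1 or 3 (highest adjusted p 0.0791). DSG4, a desmoglein of hair follicles, passed as lower (-0.23, adjusted p = 0.0437) at means of 4.45 and 4.67, both under the dim mark, and lost the call in 9 of 14 other settings. Those included leaving out any array except negative control replicate 3. CDSN, the adhesion protein corneodesmosin, had a change of 0.16 and an adjusted p of 0.131.

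Keratins, the filaments that desmosomes anchor, gave the largest changes among the lists. Of 7 that were measured, 4 passed as higher and 0 as lower, against 12.6% and 14% of all genes, and the median log2 change was 0.32. KRT7 rose by 0.96 ± 0.09 (SE, n = 3 per group, adjusted p = 0.000226 by limma), KRT8 by 0.89 ± 0.07 (adjusted p = 6.39e-05) and KRT18 by 0.55 ± 0.06 (adjusted p = 0.000274). All 3 are keratins of simple epithelia, and their calls held in all 15 other settings. KRT15, a basal keratin, rose by 0.32 ± 0.10 (adjusted p = 0.0377 by limma), and this call was lost with all probe sets tested and without any 1 array other than negative control replicate 2 (highest adjusted p 0.125). KRT19 (-0.03), KRT5 (0.05) and KRT14 (0.08) did not pass. KRT6A and KRT17 were not analysed here.

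Hemidesmosomes anchor keratin to the basement membrane. Of 5 measured genes of theirs the test called 1 higher and 2 lower, against 12.6% and 14% of all genes, and the median log2 change was 0.01. The integrin gene ITGB4 rose by 0.77 ± 0.09 (SE, n = 3 per group, adjusted p = 0.000416 by limma). The plakin DST fell by 0.31 ± 0.07 (adjusted p = 0.00945 by limma) and its relative PLEC by 0.28 ± 0.07 (adjusted p = 0.0149), the latter call being lost without miR-205 replicate 1 or negative control replicate 3 (highest adjusted p 0.0603). ITGA6 had a change of 0.07 (adjusted p = 0.383). Among the plakins that are desmosome members or in the partner lists, PPL was thus higher and DST and PLEC were lower. DSP (-0.05) and envoplakin, EVPL (-0.01), the known partner of periplakin, did not pass. EVPL had a 95% interval of -0.16 to 0.14.

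Of 8 cornified envelope genes, the cross-linked coat of keratinocytes in which periplakin also takes part, 0 passed by limma, where 26.6% of all genes did, and 1 had an unadjusted p under 0.05, where 37.8% of all genes had. That was SPRR1A, with a change of 0.17 (adjusted p = 0.0811). IVL (-0.14), SPRR2A (-0.14) and LORICRIN (-0.06) had the next smallest p-values. Without negative control replicate 2 the values were -0.25 for IVL, -0.23 for SPRR2A and -0.10 for LORICRIN, and 0 of the 8 genes passed. The largest change of the list in that fit was that of FLG, -0.30 (adjusted p = 0.0939 by limma), against -0.09 with all arrays. SPRR2A lay between -0.25 and 0.03 over the other settings. All of these genes but SPRR1A and TGM1 lay under the dim mark, where a change could be missed.

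**Figure D4:**
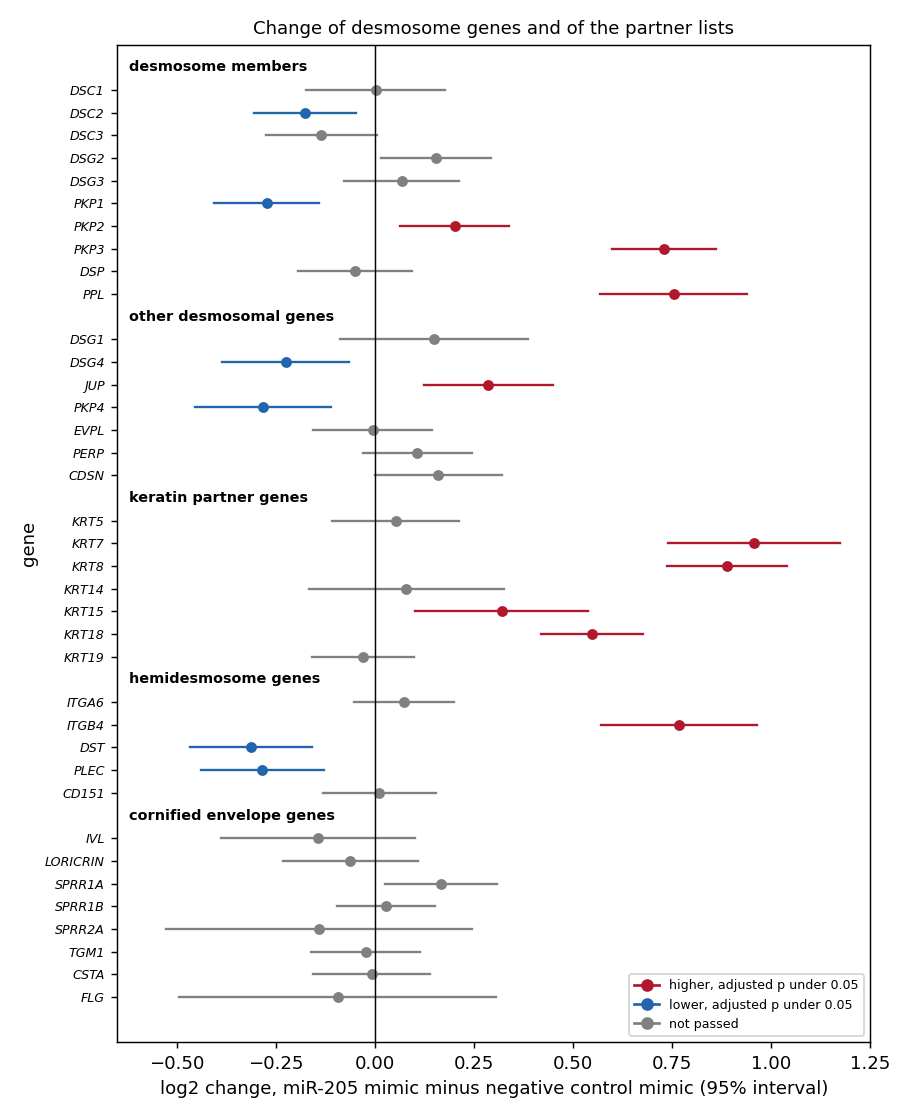
Log2 change (miR-205 mimic minus negative control mimic, horizontal axis) with its 95% interval from limma for the 10 desmosome genes and the 27 genes of the partner lists. Red and blue mark genes called higher and lower, and the widest departures from 0 are KRT7, KRT8, ITGB4, PPL and PKP3.

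The genes whose pattern over the 6 arrays came closest to that of PPL were SMARCB1, a chromatin remodelling subunit, SLC41A2, a magnesium transporter, and ABCC3, an organic anion exporter. The measure was the root mean square difference of log2 values centred on each gene's mean, and it was 0.03 for SMARCB1 and 0.04 for the other two. SMARCB1 read 9.20, 9.52 and 9.47 on the control arrays and 10.24, 10.23 and 10.11 with miR-205. Its lowest array was negative control replicate 1, as for PPL, a likeness that follows from choosing genes by this measure.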

How the data were processed

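Per the submitters' processing notes, the authors made the deposited log2 intensities with RMA in Affymetrix Expression Console 1.1.2. They were used without further normalization. The genome build of the array was not given in the sources used here. Of 33297 probe sets, 21214 were in the platform's probe table, 19460 with 1 symbol and 1754 with several. Per gene the single-symbol probe set with the highest mean was taken (18417 genes). The comparison used lmFit and eBayes of limma 3.58.1 (R 4.3.3), a two-sided test with no term besides group and a threshold of 0.05. The steps were tested on simulated data with independent noise and fewer changed genes than were called here. That check does not show what share of small changes is found in these data. With 3 arrays per group, the number of arrays limits the precision, and RMA gives no detection call.

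Members, lists and tests were chosen with earlier results of these data known. All members are named. Each partner list names up to 4 genes with the smallest p, and the 3 genes most like the member with the largest called change are named, leaving out uncharacterised loci, open reading frames, FAM and KIAA genes and small RNAs. KRT19, KRT5, KRT14, EVPL and FLG, and the pairs compared, were added after values were seen. Alternatives covered normalization, dim genes, probe sets, variance model, weights per array, a replicate block, and fits without each array in turn.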

Additional observations from a re-analysis of the deposited data

How the results depend on the processing

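Of the 328 values recomputed under other settings, 285 kept their direction and side of the threshold or, for counts, stayed within 1.5 times. A fall from 3 to 2 members called higher counted as kept, as did counts that stayed at 0 and genes that never passed. The share is therefore no measure of how firm a call was. DSC2 and PKP2 each lost theirs in 8 of 15 settings. Members called lower numbered 1 in place of 2 with arrays centred on their median, with all probe sets tested and with the replicate block, and 1 to 2 with 1 array left out. Members called higher numbered 2 in every case with 1 array left out. DSC2 kept a change of -0.18 with arrays centred (-0.177, adjusted p = 0.0512 by limma), with all probe sets tested (-0.178, 0.0807) and with the replicate block (-0.178, 0.0773), and ranged from -0.20 to -0.16 with 1 array left out. PKP2 stayed at 0.20 (0.201) with all probe sets tested (adjusted p = 0.0746) and with the replicate block (0.0686), and ranged from 0.16 to 0.23 with 1 array left out. DSC1, near 0 throughout, turned to -0.01 (-0.00796) with array weights, -0.065 without miR-205 replicate 1 and -0.04 without negative control replicate 3 (range -0.0654 to 0.0436 with 1 array left out). Other desmosomal genes called lower numbered 1 with arrays centred, with dim genes left out, with a robust variance with a trend and with the replicate block, 0 with all probe sets tested and 0 to 1 with 1 array left out, which gave 0 to 1 called higher. Hemidesmosome genes called lower numbered 1 to 2 with 1 array left out. Some of these settings use fewer arrays or more tests, but the cause of the losses was not tested. Without negative control replicate 2, 2668 of all genes were called higher and 2881 lower, against 2320 and 2586 with all 6 arrays. Leaving out dim genes gave no value for DSC1 and DSG3. The main fit did not pair the arrays by replicate number. Same-numbered arrays deviated together weakly (correlations 0.01 to 0.09), but 5 of 6 arrays correlated best with their own number. These values do not settle whether the arrays were paired. The block also ended the calls of KRT15 and DSG4, and it moved the count of all genes called from 2320 to 2204 higher and from 2586 to 2423 lower.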
